A study of Rattus norvegicus with 6 samples.

Results

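The fragments described here come from the nuclear histidine transfer RNA with anticodon GTG (His-GTG), in small RNA libraries of rat hippocampus. They are all listed fragments whose name holds His-GTG and no mitochondrial prefix, 21 of 615 listed fragments. Of the 21, 8 were 5' fragments that start at the first base of the tRNA, 2 were 3' fragments ending with the CCA tail, and 11 were trailers from behind the 3' end of the precursor tRNA. One group of rats had received nicotine and the control group saline, with 3 libraries from separately numbered animals in each group. All were Sprague-Dawley rats, an outbred laboratory stock, of 6 to 8 weeks. The sources used here do not give the dose, route or duration of the nicotine treatment. The files list tRNA fragments alone, so the labelled tissue could not be checked against marker genes.

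Histidine tRNA is made by RNA polymerase III as a precursor. Its trailer is cut off by RNase Z and CCA is added to the new 3' end, so a trailer reports on precursor processing and a CCA-ended fragment on the mature tRNA. It is unusual in carrying an extra G, added by the guanylyltransferase Thg1 in front of the first encoded base, which histidyl-tRNA synthetase recognises. Its anticodon begins with a G that is modified to queuosine in mammals, as in the tRNAs for asparagine, aspartate and tyrosine. Cuts in the anticodon loop by nucleases such as angiogenin give long 5' fragments, and in human cells those of histidine tRNA are known from sex-hormone-dependent breast and prostate cancer lines and as ligands of the RNA sensor TLR7 in macrophages.

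RefSeq (GRCr8) annotates 10 rat genes for this tRNA under the symbol Trnah-gug, 5 of them on one chromosome and 3 on another, and all are 72 bases long. With the CCA tail the mature tRNA is 75 bases long, and both 3' fragments in the files end at position 75. Numbering that ends at 75 leaves no position for the extra G, and whether reads carried it cannot be seen in the files. All 8 5' fragments and both 3' fragments carry the same suffix, His-GTG-1, so the files do not divide them among the genes. The trailers carry 6 different suffixes, whose meaning the files do not state. Trailers of the same suffix start at the same base and differ in where they end, so neither they nor the nested 5' fragments are independent measurements.

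Values are deposited CPM, the authors' normalised read counts, scaled to a common library total. The totals implied by the CPM steps were 90828 to 128694 reads in the nicotine libraries and 154414 to 374763 reads in the saline libraries, so depth and treatment cannot be told apart. All listed fragments took 47.1% to 57.4% of the total in the nicotine libraries and 52.7% to 68.8% in the saline libraries. His-GTG fragments had 281, 367 and 924 reads in nicotine 1, 2 and 3, and 1393, 1344 and 2003 reads in saline 1, 2 and 3. Every listed fragment reached at least 20 CPM in 1 library, which took 2 reads in nicotine 1 and 8 reads in saline 1. Of the 21 His-GTG fragments 16 reached that level in both groups, 4 only in nicotine libraries (3 trailers and a 3' fragment) and 1 only in a saline library.

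Trailers, summed, were higher in deposited CPM in every nicotine library than in any saline library, at 1197 ± 120 CPM against 757 ± 43.1 CPM (SD, n = 3 each). The groups were parted in this direction for 15.5% of the 142 sums by class and anticodon over all tRNAs. As a share of all nuclear trailer reads, the His-GTG trailers overlapped between the groups. Summed 5' fragments were lower in nicotine 1 and nicotine 2 than in every saline library, while nicotine 3 lay within the saline range. Neither difference passed the main test, limma on log2(CPM + 1), in which 0 of 21 His-GTG fragments and 0 of 586 tested fragments (0%) were under 0.05 after Benjamini-Hochberg adjustment. At an unadjusted p under 0.05 limma gave 41 of the 586 fragments. The 5' fragments took 48.8%, 49.3% and 78.2% of the His-GTG reads in nicotine 1, 2 and 3, and 75.5%, 88.2% and 90.0% in saline 1, 2 and 3.

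**Figure D1:**
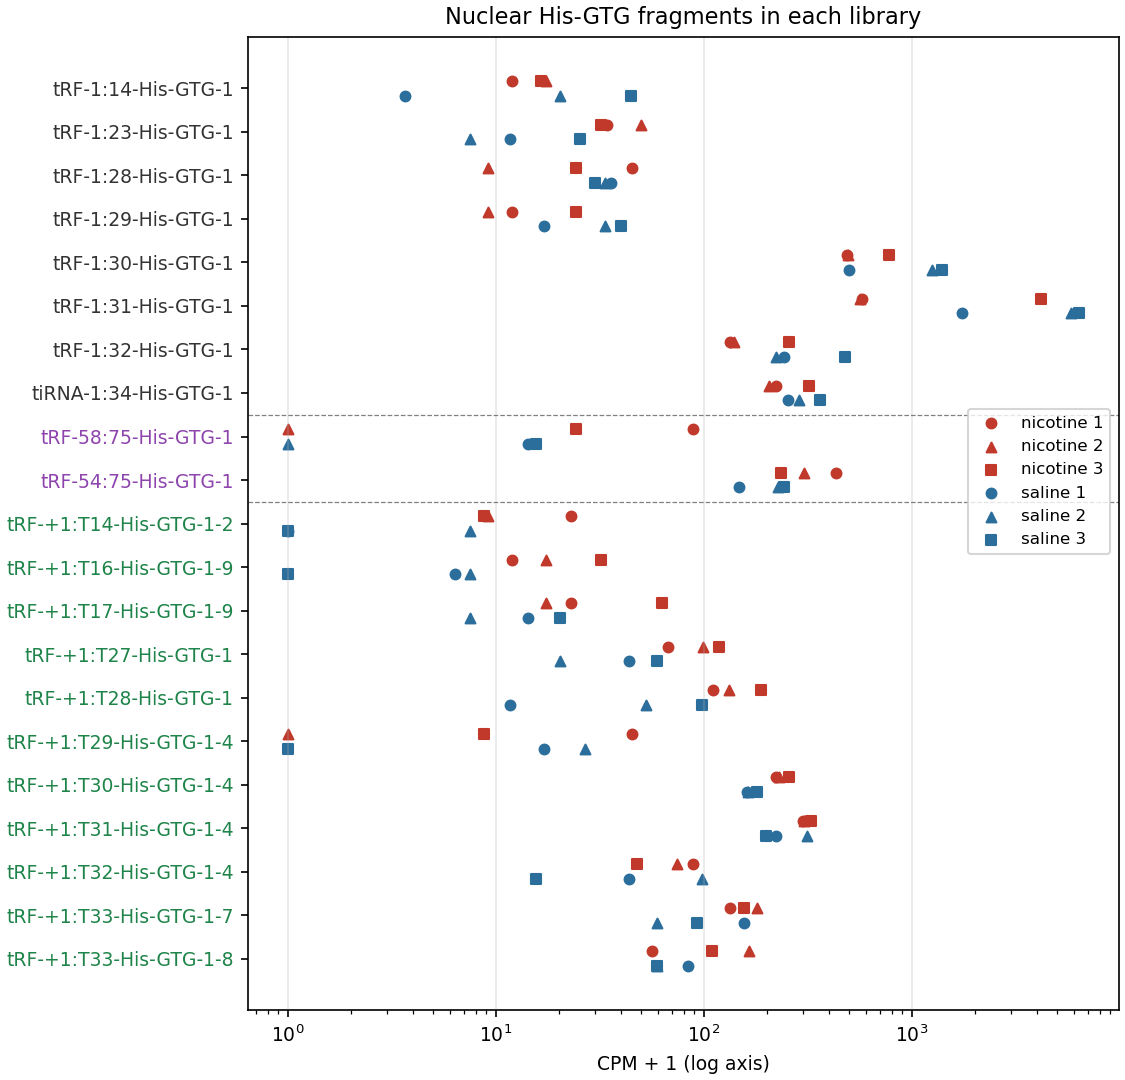
CPM + 1 (log axis) of each of the 21 nuclear His-GTG fragments in every library, with nicotine libraries (red) above saline libraries (blue) in each row and circle, triangle and square for rats 1, 2 and 3. Dashed lines part the 5' fragments (top), the CCA-ended 3' fragments and the trailers, and the 31 nt 5' fragment spans the most CPM, 564 to 6372.

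The 5' fragments were led by the 31 nt form, tRF-1:31-His-GTG-1. It had 573, 564 and 4173 CPM in nicotine 1, 2 and 3, and 1748, 5835 and 6372 CPM in saline 1, 2 and 3. Nicotine 1 and 2 lay below every saline library and nicotine 3 above saline 1, so the groups overlapped. Its log2 fold change was -1.86 (SE 1.03, limma adjusted p = 0.734). Without nicotine 3 it was -2.82 (limma adjusted p = 0.000474), and this fragment was then 1 of 5 past the threshold. The other 4 were the 31 nt 5' fragments of Glu-CTC, Glu-TTC and Pro-AGG and a 16 nt 5' fragment of Ser-AGA, named here because they passed in that fit. Leaving out any of the other libraries gave -2.46 to -1.38 for the 31 nt form of His-GTG, without passing (limma adjusted p 0.707 to 0.956).

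The 30 nt form, tRF-1:30-His-GTG-1, had 484, 491 and 777 CPM in the nicotine libraries and 499, 1243 and 1397 CPM in the saline libraries. Its log2 fold change was -0.74 (SE 0.39, limma adjusted p = 0.679). The groups overlapped because saline 1, low in both forms, lay just above nicotine 2 and below nicotine 3. The 32 nt form, tRF-1:32-His-GTG-1, had 132, 139 and 256 CPM in the nicotine libraries and 243, 220 and 475 CPM in the saline libraries, a log2 fold change of -0.81 (SE 0.41, limma adjusted p = 0.657). Here too nicotine 3 alone reached the saline range. The longest form, tiRNA-1:34-His-GTG-1, which the files class as a tiRNA, a fragment cut in the anticodon loop, had 220, 204 and 319 CPM in the nicotine libraries and 253, 285 and 359 CPM in the saline libraries. Its libraries spanned the narrowest range of the 4 abundant 5' forms, and the log2 fold change was -0.28 (SE 0.39, limma adjusted p = 0.893).

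A shorter form had the other direction. The 23 nt fragment, tRF-1:23-His-GTG-1, which ends well before the anticodon, had 33.0, 49.1 and 31.1 CPM in the nicotine libraries and 10.7, 6.48 and 24.2 CPM in the saline libraries. All 3 nicotine values lay above all 3 saline values, on 13 reads in the nicotine and 10 reads in the saline libraries together. Its log2 fold change was 1.54 (SE 0.79, limma adjusted p = 0.657). The remaining 5' forms, of 14, 28 and 29 nt, had at most 44.0 CPM in any library, overlapped between the groups and had log2 fold changes of 0.01, -0.61 and -1.03.

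Over the 8 5' fragments 6 had a negative log2 fold change, and 0 passed the adjusted threshold. Their median was -0.68, against 0.28 over all 586 tested fragments. Among the 202 other nuclear 5' fragments tested 118 were negative and the median was -0.09. Rescaling with edgeR's TMM factors moved the median of all tested fragments by -0.30, to -0.02. The His-GTG 5' fragments then had 1 positive and 7 negative values. The median of the 202 other nuclear 5' fragments was then -0.41, so mostly negative values were not particular to His-GTG. Among 5' fragments that reached 20 CPM in both groups, 1 of 7 of His-GTG and 33 of 157 other nuclear ones were then positive. In deposited CPM none of the 8 His-GTG 5' fragments was lower without overlap, as were 1.54% of all tested fragments. Of the 8, 1 was higher without overlap, as were 12.6% of all tested fragments. No member of the class had an unadjusted p under 0.05, where 1.88% of all tested fragments were lower and 5.12% higher at that level.

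Summed over the class, 5' fragments had 1508, 1480 and 5618 CPM in nicotine 1, 2 and 3, and 2807, 7674 and 8738 CPM in saline 1, 2 and 3. With n = 3 each, the mean was 2869 ± 2381 (SD) CPM in nicotine and 6406 ± 3162 (SD) CPM in saline libraries, and the groups overlapped. In the fit over 142 sums by class and anticodon, of which 0% passed and 13 had an unadjusted p under 0.05, the log2 fold change was -1.30 (SE 0.65, limma adjusted p = 0.504). It was negative under every scaling tried, at -1.63 after TMM rescaling, -1.50 in edgeR, -1.52 in DESeq2 and -1.06 relative to the listed reads. Nicotine 3 decided the call. Without it the log2 fold change was -1.94 and passed (limma adjusted p = 1.51e-05), and leaving out any of the other libraries gave -1.82 to -0.98 without passing. Without the 31 nt form it was -0.63 (limma adjusted p = 0.510).

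**Figure D2:**
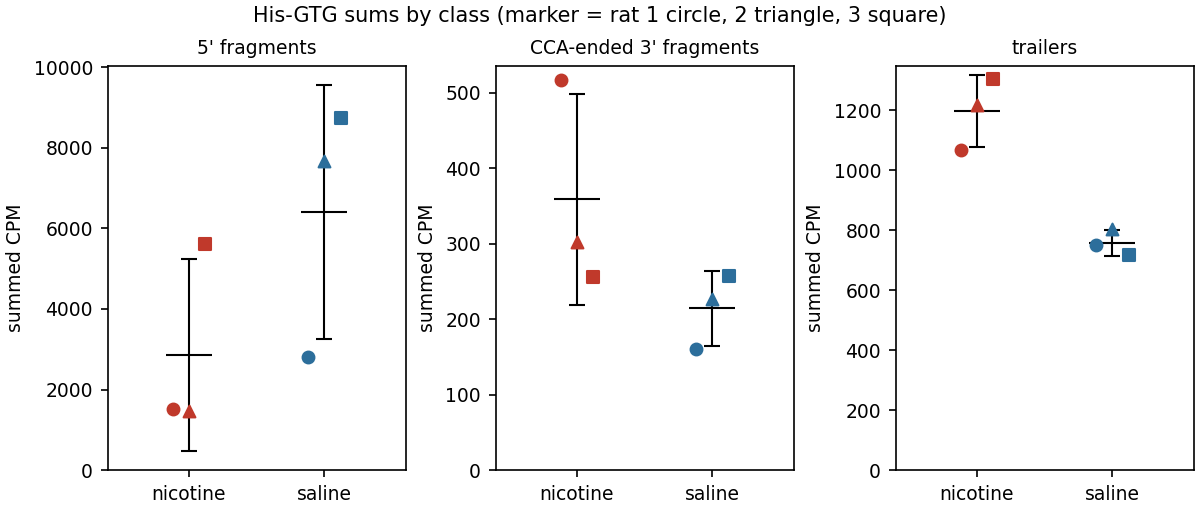
Summed CPM of the His-GTG 5' fragments, CCA-ended 3' fragments and trailers in each library, nicotine (red) left of saline (blue), with circle, triangle and square for rats 1, 2 and 3, and the mean and SD of 3 libraries in black. The trailer sums do not overlap, at 1068 to 1305 CPM in nicotine and 718 to 803 CPM in saline libraries, while the other sums do.

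The lengths of the 5' fragments separated nicotine 1 and 2 from the other 4 libraries. The 31 nt form took 38.0% (95% Wilson interval 30.3 to 46.3) and 38.1% (31.4 to 45.4) of the His-GTG 5' reads in nicotine 1 and 2, and 74.3% (71.0 to 77.3) in nicotine 3. In saline 1, 2 and 3 it took 62.3% (59.3 to 65.1), 76.0% (73.5 to 78.4) and 72.9% (70.8 to 74.9). These intervals cover counting error only. The 30 nt form took 32.1%, 33.1% and 13.8% in nicotine 1, 2 and 3, and 17.8%, 16.2% and 16.0% in saline 1, 2 and 3. There were thus 1.18, 1.15 and 5.37 reads of 31 nt for each read of 30 nt in nicotine 1, 2 and 3, and 3.50, 4.69 and 4.56 in saline 1, 2 and 3. Nicotine 3 was the highest and nicotine 2 the lowest of the 6, and the groups overlapped.

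The same ratio was computed for the 5 other nuclear anticodons with at least 3 reads of each length in every library, as a description chosen after the values were seen. For Glu-CTC it was 0.826, 0.899 and 1.38 in nicotine 1, 2 and 3, and 1.62, 1.92 and 1.98 in saline 1, 2 and 3, with no overlap. For Glu-TTC nicotine 1 and 2 were again the lowest, at 1.84 and 2.51, and nicotine 3 the highest, at 4.51. Gly-CCC and Gly-GCC had the reverse order within the nicotine group, with 5.54, 6.63 and 3.60 for Gly-CCC and 5.48, 6.06 and 1.85 for Gly-GCC in nicotine 1, 2 and 3. In the saline libraries Gly-CCC had 4.84 to 5.74 and Gly-GCC 4.59 to 4.96. Lys-CTT had 4.20, 6.23 and 4.75 in nicotine 1, 2 and 3 and 4.87, 5.53 and 6.68 in saline 1, 2 and 3. The highest ratio was 4.67 times the lowest for His-GTG, and 1.59 to 3.27 times the lowest for the other 5.

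**Figure D3:**
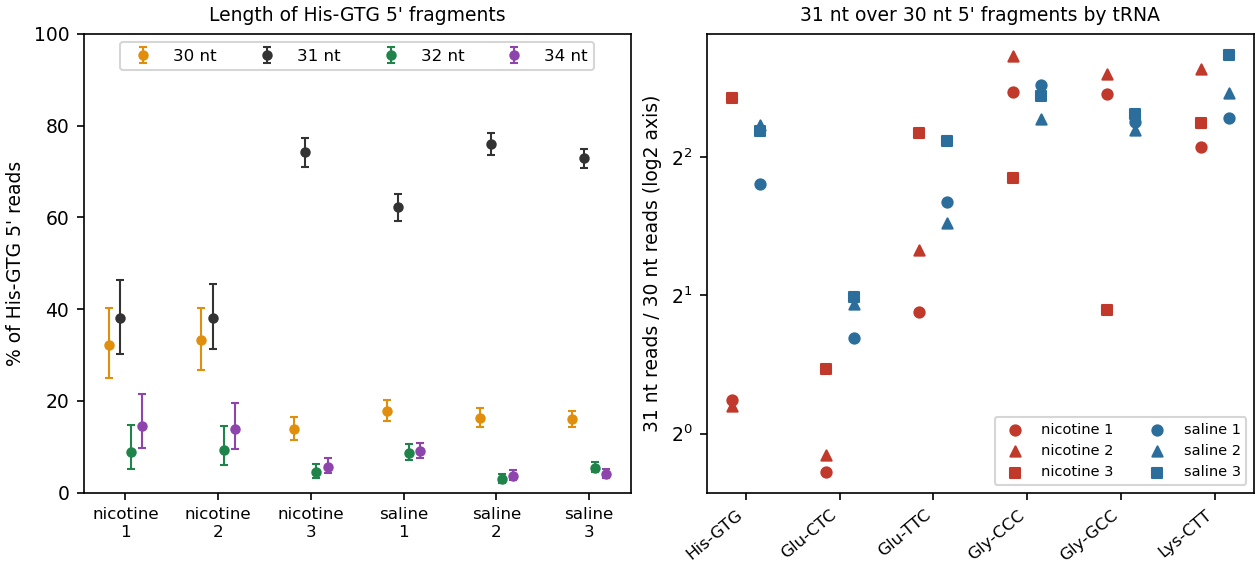
Left, share of the His-GTG 5' reads taken by the 30, 31, 32 and 34 nt forms in each library, nicotine libraries first, with 95% Wilson intervals. Right, 31 nt reads divided by 30 nt reads (log2 axis) of 6 nuclear tRNAs, nicotine (red) left of saline (blue), where nicotine 1 and 2 are low for His-GTG, Glu-CTC and Glu-TTC and nicotine 3 is low for Gly-CCC and Gly-GCC.

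The CCA-ended 3' fragments come from the TψC arm and acceptor stem of the mature tRNA. The 22 nt form, tRF-54:75-His-GTG-1, had 429, 303 and 233 CPM in nicotine 1, 2 and 3, and 147, 227 and 242 CPM in saline 1, 2 and 3. Nicotine 1 was highest, and nicotine 3 lay between saline 2 and saline 3. Its log2 fold change was 0.63 (SE 0.40, limma adjusted p = 0.734), and 0.40 without nicotine 1. The 18 nt form, tRF-58:75-His-GTG-1, had 8, 0 and 3 reads in nicotine 1, 2 and 3, and 5, 0 and 3 reads in saline 1, 2 and 3. Its fitted log2 fold change of 1.09 (SE 1.56, limma adjusted p = 0.896) turned to -0.30 without nicotine 1 and to -0.21 without saline 2, and no direction is given for it.

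The 3' sum averaged 359 ± 139 (SD) CPM in nicotine and 215 ± 49.6 (SD) CPM in saline libraries, n = 3 each, with overlap and a log2 fold change of 0.70 (SE 0.37, limma adjusted p = 0.504). It was 0.38 after TMM rescaling, 0.26 in edgeR and DESeq2, and 0.40 without nicotine 1. Among 138 other nuclear 3' fragments tested, whichever group they were listed through, 118 had a positive log2 fold change, with a median of 0.46. The 18 nt His-GTG form reached 20 CPM in nicotine libraries only, while the 22 nt form did so in both groups. The 138 were not restricted to fragments that did so in both groups, so they are no like background for the 22 nt form.

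Trailers of His-GTG were the fourth most abundant of 28 nuclear anticodons with trailers by mean CPM in both groups, behind those of initiator methionine, Arg-ACG and Arg-TCG tRNAs. They were also long. Of the 11, 8 had 27 to 33 nt, and the median was 29 nt, against 16 nt for the 98 other nuclear trailers. Only 6 of those 98 had 27 nt or more, so His-GTG supplied 8 of the 14 long trailers in the list. Weighted by reads, His-GTG trailers averaged 30.2 nt, second to Ser-GCT trailers at 31.2 nt.

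The most abundant group of trailers carried the suffix His-GTG-1-4. Its 31 nt form, tRF-+1:T31-His-GTG-1-4, had 297, 303 and 326 CPM in nicotine 1, 2 and 3, and 221, 311 and 199 CPM in saline 1, 2 and 3, with overlap through saline 2. Its log2 fold change was 0.37 (SE 0.39, limma adjusted p = 0.848), and -0.0253 in edgeR. The 30 nt form, tRF-+1:T30-His-GTG-1-4, had 220, 229 and 256 CPM in the nicotine libraries and 160, 162 and 179 CPM in the saline libraries. All 3 nicotine values lay above all 3 saline values. The means ± SD were 235 ± 18.9 CPM in nicotine and 167 ± 10.7 CPM in saline libraries for n = 3 each. These values rest on 20, 28 and 33 reads in nicotine 1, 2 and 3, and 60, 25 and 37 reads in saline 1, 2 and 3. Counting error at so few reads exceeds these SDs, so the small spread does not show close agreement between rats. The log2 fold change was 0.49 (SE 0.41, limma adjusted p = 0.788), and 0.17 after TMM rescaling and 0.10 in edgeR.

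The trailers named His-GTG-1 had the smallest p-values of the 21 fragments. The 28 nt form, tRF-+1:T28-His-GTG-1, had 110, 131 and 186 CPM in nicotine 1, 2 and 3, and 10.7, 51.8 and 97.0 CPM in saline 1, 2 and 3. The nicotine values lay above the saline values without overlap, with saline 1 far below the other libraries. Its log2 fold change was 1.84 (SE 0.61, unadjusted p = 0.00500, limma adjusted p = 0.657), and it was 0.96 without saline 1, where the fragment had 4 reads. The 27 nt form, tRF-+1:T27-His-GTG-1, had 66.1, 98.1 and 117 CPM in the nicotine libraries and 42.7, 19.4 and 58.2 CPM in the saline libraries. It too did not overlap, with a log2 fold change of 1.30 (SE 0.59, unadjusted p = 0.0312, limma adjusted p = 0.657), and 0.86 without saline 2. Together these 2 trailers had 176, 229 and 303 CPM in nicotine 1, 2 and 3, and 53.4, 71.2 and 155 CPM in saline 1, 2 and 3.

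The 33 nt trailer tRF-+1:T33-His-GTG-1-7 had 132, 180 and 155 CPM in nicotine 1, 2 and 3, and 155, 58.3 and 92.1 CPM in saline 1, 2 and 3. Saline 1 lay within the nicotine range, and the log2 fold change was 0.71 (SE 0.47, limma adjusted p = 0.739). It was 0.37 without saline 2, 0.39 after TMM rescaling, 0.12 in edgeR and 0.20 in DESeq2. The other 33 nt trailer, with the suffix His-GTG-1-8, had 55.0 to 164 CPM in nicotine and 58.2 to 82.7 CPM in saline libraries, with overlap. The short trailer tRF-+1:T16-His-GTG-1-9 had 1, 2 and 4 reads in the nicotine libraries and 2, 1 and 0 reads in the saline libraries. Its fitted log2 fold change of 2.38 (SE 1.48, limma adjusted p = 0.734) depends on the pseudocount. This fragment and the trailers of 14 and 17 nt were the 3 that reached 20 CPM in nicotine libraries only, so that they are listed at all rests on the nicotine libraries.

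Leaving those 3 aside, 7 of the 8 trailers that reached 20 CPM in both groups had a positive log2 fold change, with a median of 0.65, or 0.33 after TMM rescaling. Among the 71 other nuclear trailers that did so 50 were positive, with medians of 0.40 and 0.10. In deposited CPM the groups did not overlap for 3 of the 8, those of 27, 28 and 30 nt, all higher in nicotine. The same held for 8 of the 71 other nuclear trailers and for 12.6% of all tested fragments, whichever group they were listed through. Divided by the TMM factors, 1.27 for nicotine 1, the trailers of 27, 28 and 30 nt each overlapped through nicotine 1. Overlap of the other nuclear trailers was not counted on that scale. At an unadjusted p under 0.05 there were 2 trailers, both higher, beside 5.12% of all tested fragments.

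Summed, the trailers had 1068, 1218 and 1305 CPM in nicotine 1, 2 and 3, and 750, 803 and 718 CPM in saline 1, 2 and 3. The groups did not overlap in deposited CPM. Divided by the TMM factors, 1.27 for nicotine 1 and 0.736 for saline 1, the sum of nicotine 1 lay below that of saline 1. The sums rest on 97, 149 and 168 reads in nicotine 1, 2 and 3, and 281, 124 and 148 reads in saline 1, 2 and 3. Of the 142 sums 15.5% were higher in nicotine without overlap and 0.704% lower. The log2 fold change was 0.66 (SE 0.27, limma adjusted p = 0.504). It was 0.33 after TMM rescaling, 0.23 in edgeR and 0.20 in DESeq2, and 0.90 relative to the listed reads. Over all 142 sums the median was 0.40 for CPM as deposited, and 0.08 when rescaled by TMM. With a library left out the trailer sum had 0.59 to 0.74 and did not pass. Of all nuclear trailer reads His-GTG took 3.65%, 4.91% and 3.41% in nicotine 1, 2 and 3, and 3.97%, 2.71% and 2.75% in saline 1, 2 and 3. These shares overlapped between the groups (exact two-sided permutation p = 0.3).

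**Figure D4:**
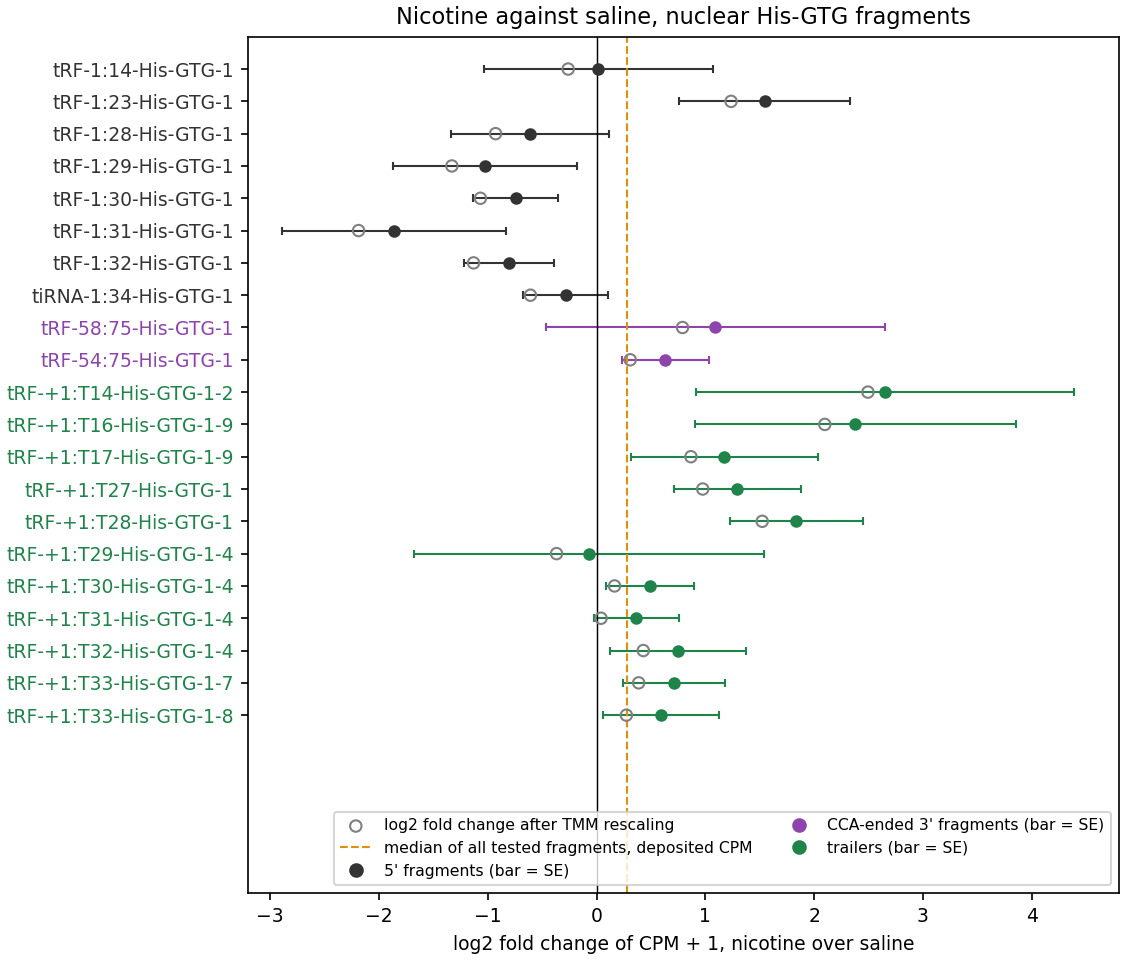
Log2 fold change of CPM + 1, nicotine over saline, of the 21 nuclear His-GTG fragments (filled points, bars are SE) and the same after TMM rescaling (open circles), for 5' fragments (black), CCA-ended 3' fragments (purple) and trailers (green). The dashed line is the median of all 586 tested fragments on the deposited CPM, 0.28, and most 5' fragments lie left of it and most trailers right of it.

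The balance inside a library does not depend on the total to which CPM are scaled. There were 0.708, 0.823 and 0.232 trailer reads for each 5' read in nicotine 1, 2 and 3, and 0.267, 0.105 and 0.0821 in saline 1, 2 and 3. Nicotine 1 and 2 lay above every saline library, and nicotine 3 lay just below saline 1. On the log2 scale the mean was -0.96 ± 1.00 in nicotine and -2.92 ± 0.90 in saline libraries (SD, n = 3 each), a difference of 1.96. The exact two-sided permutation p was 0.2, and 0.1 is the smallest that 3 against 3 libraries allow. With the 31 nt form left out of the 5' reads, an alternative added after the data were seen, the ratios were 1.14, 1.33 and 0.903 in nicotine and 0.708, 0.437 and 0.303 in saline libraries. They did not overlap, with a log2 difference of 1.29 (exact two-sided permutation p = 0.1).

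For the 3' fragments too, the ratio to 5' fragments was highest in nicotine 1 and 2. Their reads per 5' read were 0.343, 0.204 and 0.0456 in nicotine 1, 2 and 3, and 0.0570, 0.0295 and 0.0294 in saline 1, 2 and 3. The ratio of trailers to 3' fragments was 2.06, 4.03 and 5.09 in the nicotine libraries and 4.68, 3.54 and 2.79 in the saline libraries, a log2 difference of -0.04 (exact two-sided permutation p = 1). The groups overlapped, and this p does not show that the ratios were equal.

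His-GTG fragments as a whole took 0.630%, 0.523% and 1.52% of the listed reads in nicotine 1, 2 and 3, and 0.540%, 1.43% and 1.84% in saline 1, 2 and 3. The means were 0.892% ± 0.549 in nicotine and 1.27% ± 0.666 in saline libraries (n = 3 each), the errors being SD. The exact two-sided permutation p was 0.6, and without saline 3 the difference shrank to -0.0945 percentage points, against -0.380 with it. Among the listed reads other than those of Gly tRNAs the share was 3.27% in nicotine and 5.85% in saline libraries, and as summed CPM it was 4425 in nicotine and 7378 in saline libraries. In both cases the groups overlapped and the exact two-sided permutation p was 0.2. Because the libraries come from whole tissue, fewer cells of a type and less of a fragment per cell cannot be told apart. Among nuclear anticodons His-GTG held rank 8, 8 and 7 of 33 for 5' fragments in nicotine 1, 2 and 3, and rank 8, 7 and 6 in saline 1, 2 and 3. Its neighbours in the saline order were Glu-TTC, with 4760 CPM in nicotine and 6813 CPM in saline libraries, and Val-CAC, with 3718 CPM in nicotine and 3506 CPM in saline libraries. These means lay within the SD of the His-GTG 5' sum in the same group. For trailers it held rank 4 or 5 of 28 in every library, and for 3' fragments rank 15 to 17 of 40.

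The sums whose log2 CPM followed the His-GTG 5' sum most closely over the 6 libraries, among 93 sums with at least 20 CPM in every library, were the 5' fragments of Pro-AGG (Pearson r = 0.911), Glu-CTC (r = 0.877) and Glu-TTC (r = 0.840). All of them had their lowest values in nicotine 1 and 2. Pro-AGG 5' fragments had 77.1, 131 and 497 CPM in nicotine 1, 2 and 3, and 248, 330 and 480 CPM in saline 1, 2 and 3. Closest to the trailer sum were the 3' fragments of Ala-TGC (r = 0.976), the 5' fragments of mitochondrial Val-TAC (r = 0.927) and those of Leu-CAA (r = 0.890). These values describe sums taken from the same 6 libraries, in which depth and treatment cannot be told apart, and carry no test.

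Fragments of the other tRNAs that carry queuosine, Asn-GTT, Asp-GTC and Tyr-GTA, were set beside those of His-GTG. Of 38 tested fragments 26 had a positive and 12 a negative log2 fold change, with a median of 0.48, and 0 passed. Over all tested fragments 378 of 586 were positive, a like share. Their 5' fragments had 12 of 17 positive with a median of 0.54, whereas the His-GTG 5' fragments had 2 of 8 positive. The 5' fragments of Asp-GTC and Lys-CTT, which together with those of His-GTG are known as hormone-dependent fragments in human cancer lines, had 10 of 18 positive with a median of 0.03, and 0 passed. No difference between these groups of fragments was tested.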

How the data were processed

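Total RNA of the hippocampus received small RNA adapters, was amplified and was size-selected on a gel before sequencing on a NextSeq instrument, per the labels' protocols. FastQC, cutadapt and Bowtie are named without versions, per the submitters' processing notes, while the sources used here give neither genome build nor tRNA annotation. Deposited by the authors were CPM. In 2 of the 6 files the header holds no unit, and CPM was inferred from the values. All CPM values (100%) were whole multiples of 1 read within 0.001 reads, which gave reads and library totals. Which reads the authors' total includes is not stated.

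Classes were read from the names, as trailers by the +1 start and 5' fragments by a start at position 1. Fragments that start later were classed as 3' fragments, apart from the shortest tRFs. Their end position was not checked, so the 3' sets of other tRNAs may hold fragments without the CCA tail. The main test was limma 3.58.1 (R 4.3.3, trend and robust, two-sided) on log2(CPM + 1) for fragments, or sums by class and anticodon, that reached 1 CPM in 3 or more libraries, with Benjamini-Hochberg adjustment at 0.05 over all tested. Fitted changes of low fragments depend on the pseudocount. For the 16 nt trailer the log2 fold change was 2.74, 2.38 and 1.06 with 0.5, 1 and 10 CPM. The same fragments were tested as recovered reads in edgeR 4.0.16 (TMM, quasi-likelihood) and DESeq2 1.42.0. With edgeR 31 and with DESeq2 18 fragments had an unadjusted p under 0.05, against 41 in limma, and none passed. Shares and ratios were compared with exact permutation tests (scipy 1.17.1). The limma procedure was tested on simulated data with known fold changes.

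Named fragments were the 3 with the highest mean CPM per class and the 3 with the smallest p among 5' fragments and trailers, 13 in all, and the 3 sums with the highest r with the His-GTG 5' sum and with its trailer sum. Other fragments and tRNAs named with values were chosen after their values were seen. Members and lists were chosen with earlier results of these data known. Libraries of 1 group differed beyond counting error (6.72 to 16.8 chi-square per degree of freedom), and each counts as 1 sample. The rats are numbered in the labels, but nothing else says that libraries were prepared separately, and p-values refer to the spread between these libraries. In limma the SEs and p-values do not rest on a fragment's own spread alone. Its variance is drawn towards a trend fitted over all tested fragments or sums. The median log2 fold change over all 586 tested fragments was 0.28 on the deposited CPM, so single values are to be read beside it. Overlap of fragments and sums was also judged on deposited CPM, except where TMM factors are named.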

Additional observations from a re-analysis of the deposited data

How the results depend on the processing

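Under pseudocounts of 0.5 and 10 CPM, no filter, a filter of 20 CPM in 3 libraries, TMM rescaling, edgeR and DESeq2, 0 fragments passed, and the 5', 3' and trailer sums kept their sign without passing (adjusted p 0.230 to 0.965 including scaling to the listed reads). With a library left out 0 to 5 fragments passed, 0 to 1 of them of His-GTG. The log2 fold change then ranged from -1.94 to -0.98 for the 5' sum, from 0.40 to 0.91 for the 3' sum and from 0.59 to 0.74 for the trailer sum. The balance of trailers to 5' fragments ranged from 1.62 to 2.53 and the share of listed reads from -0.745 to -0.0945 percentage points. Among the 13 fragments named by rule, the stricter filter removed the 18 nt 3' fragment and the 16 nt trailer.

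Over the alternatives for the 13 named fragments 175 of 180 values kept direction and call. The exceptions were the 31 nt 5' fragment without nicotine 3 and with the block below, the 31 nt trailer at -0.0253 (adjusted p = 0.999) in edgeR, and the 18 nt 3' fragment, at -0.21 without saline 2, which ranged from -0.30 to 2.94 with a library left out. The cause was not tested.

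The rat numbers do not pair the libraries by the rule used here, since the deviations of same-numbered libraries correlated at 0.0867, 0.109 and 0.161, and only values over 0.1 in all 3 would count. Every library did correlate best with its own number. With the replicate number as a block 1 fragment passed, and it was the 31 nt 5' fragment of His-GTG, tRF-1:31-His-GTG-1 (log2 fold change -1.86, limma adjusted p = 0.00698). The block changed no other call.

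Depth limits the least read fragments, such as the trailers of 14 and 16 nt, as 3 reads are worth 23.3 to 33.0 CPM in the nicotine and 8.01 to 19.4 CPM in the saline libraries.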

Other observations

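Mitochondrial histidine tRNA, which shares the anticodon and is encoded in the mitochondrial genome, gave 6 listed fragments and no trailer among them. Its 32 nt 5' fragment, tRF-1:32-chrM.His-GTG, had 242, 254 and 295 CPM in nicotine 1, 2 and 3, and 90.7, 181 and 209 CPM in saline 1, 2 and 3. All nicotine values lay above all saline values, as for 12.6% of all tested fragments, and the log2 fold change was 0.80 (SE 0.42, limma adjusted p = 0.660). Nicotine 1 and 2, low in the nuclear 5' fragments, were not low here. The long 3' fragment of 40 nt had 297, 245 and 334 CPM in nicotine 1, 2 and 3, and 195, 266 and 310 CPM in saline 1, 2 and 3, with overlap. Summed, the 6 fragments averaged 632 ± 76.5 (SD) CPM in nicotine and 467 ± 134 (SD) CPM in saline libraries, n = 3 each, with overlap, and 0 of 6 passed in limma. No difference between the nuclear and the mitochondrial tRNA was tested.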
